A study of Mesocricetus auratus with 64 samples.

Results

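Metaphase II (MII) oocytes of Pld6 knockout (KO) golden hamsters were compared with MII oocytes of wild-type (WT) animals by long RNA sequencing. The comparison takes the 2 KO-MII and the 2 WT-MII long RNA libraries of the main set, 4 of the 64 samples of the series, of which 32 are long RNA. All 4 carry the breed label Syrian, and the KO and WT libraries differ in the labels by genotype alone (Pld6 KO or wild type). The rest of the series covers testis, oocytes at the germinal vesicle (GV) stage and embryos, and small RNA of the same kinds of sample. A further pair of KO MII libraries labelled D321, a code the labels do not spell out, was kept out of the comparison, and its values stand beside it where useful. The labels name no animal, litter or line for any library, and neither the allele nor the deleted part of Pld6 is given in the sources used here. The p-values below therefore measure the spread between these libraries, which may be technical.

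Pld6 encodes a phospholipase D-like protein of the mitochondrial outer membrane, the relative of fly Zucchini, which cuts long precursors into the pieces that PIWI proteins load as piRNAs. piRNAs guide PIWI proteins to transposon and other transcripts in germ cells. Mice lack Piwil3, whereas golden hamsters express it together with Piwil1 and Piwil2 in the oocyte, and female hamsters need the pathway for normal early embryos. An MII oocyte has completed the first meiotic division, is arrested on its second spindle, makes almost no new RNA, and lives on stored maternal transcripts, many of which it degrades or deadenylates while it matures from the GV stage.

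Per the labels' protocols, single oocytes were amplified by a protocol of the Smart-seq2 type, with ERCC spike-in RNA added. Such libraries are primed on poly(A) tails in their usual form, so fewer molecules of a transcript and fewer molecules with a tail cannot be told apart here. The gene counts were 8928993 and 11031837 in the WT-MII libraries and 10322124 and 9382110 in the KO-MII libraries. Levels are CPM, the usual scaling of a gene's counts to the gene counts of its own library, and are always given in the order replicate 1, replicate 2. CPM is not corrected for gene length, so levels are compared between libraries and not between genes.

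The KO-MII libraries held fewer kinds of transcript than the WT-MII libraries. Genes with at least 1 count numbered 13447 and 13138 in WT-MII and 11394 and 11003 in KO-MII, a mean of 13292.5 ± 218 against 11198.5 ± 276 (SD, n = 2). The groups do not overlap, and the exact two-sided permutation test gave p = 0.333, the smallest that 2 libraries against 2 allow. With all libraries thinned to a common total of 6481558 counts, 13303 and 12936 genes were left in WT-MII and 11261 and 10922 in KO-MII. The D321 libraries, also Pld6 KO, had 12611 and 13762 genes at that total, 1 below and 1 above the WT-MII pair. Gene counts per ERCC count, a measure of RNA per oocyte, were 99.2 and 48.7 in WT-MII and 75.9 and 23.2 in KO-MII. This ratio overlapped between genotypes, with a log2 difference of −0.73 (exact two-sided permutation p = 0.667), and without KO-MII replicate 2 the difference was 0.13. Within each replicate number KO-MII was below WT-MII. The test does not pair libraries by number, and whether they are paired is not known.

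**Figure D1:**
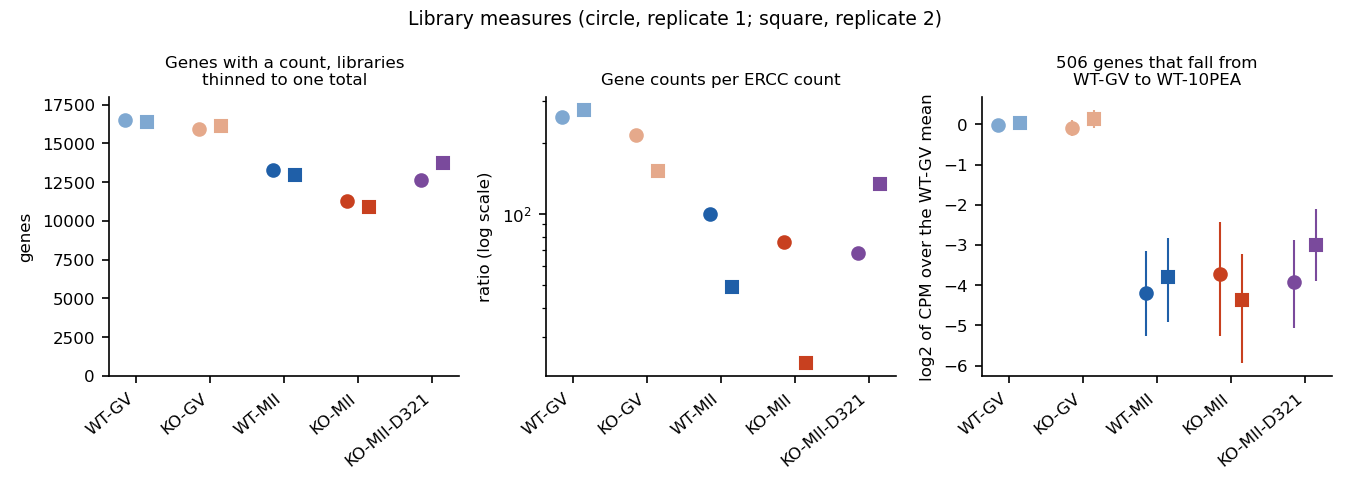
Measures of each GV and MII library by group: genes with a count after thinning to 6481558 counts (left), gene counts per ERCC count on a log axis (middle), and the level of 506 genes that fall from WT-GV to WT-10PEA, as log2 over the WT-GV mean (right; marker, median over genes; line, quartiles). The KO-MII pair lies below every other pair in the number of genes, while all MII libraries share the drop of the 506 genes.

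The 2 KO-MII libraries were unlike each other, and KO-MII replicate 1 stood apart from the other 3. Over the 10732 genes tested, the Spearman correlation was 0.929 between the WT-MII libraries and 0.762 between the KO-MII libraries, given as a description across genes, which are not independent replicates. KO-MII replicate 1 correlated at 0.812 and 0.821 with the WT-MII libraries, and KO-MII replicate 2 at 0.874 and 0.868. Of genes with a mean of at least 50 CPM in a pair, 0.0385% differed more than 4-fold between the WT-MII libraries and 15.8% between the KO-MII libraries. Of 21 ERCC rows with a mean of at least 500 counts, 1 differed more than 4-fold between the KO-MII libraries, too few rows to compare with genes. ERCC rows with a count numbered 52 and 58 in WT-MII and 37 and 57 in KO-MII. The 37 of KO-MII replicate 1 were the fewest among the 26 libraries read, and the cause was not tested. Among 1516 genes with a mean of at least 100 CPM over the 4 libraries, 48 lay more than 4-fold above and 32 more than 4-fold below all the others in KO-MII replicate 1. The same counts were 0 and 10 in KO-MII replicate 2, and 0 and 0 in each WT-MII library. Every result below is therefore also given by library.

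Some of the genes that set KO-MII replicate 1 apart are named here, chosen after their values were seen. Gspt1, the translation release factor eRF3a, was at 648 CPM in KO-MII replicate 1 and at 14.9 CPM in replicate 2, with 24.6 and 11.1 CPM in WT-MII. Eif5, which triggers GTP hydrolysis at the start codon, was at 3455 CPM in KO-MII replicate 1 against 168 CPM in replicate 2 and 275 and 341 CPM in WT-MII. Rgcc, a regulator of the cell cycle, was at 6261 CPM against 172 CPM, and at 322 and 460 CPM in WT-MII. In each of the 3 genes replicate 1 alone was high, and the D321 libraries lay near the low values (Eif5 at 134 and 204 CPM). In the other direction, Zp2, a zona pellucida glycoprotein, was at 43.6 CPM in KO-MII replicate 1 and at 369 CPM in replicate 2, with 226 and 171 CPM in WT-MII. Tsn, the RNA-binding protein translin, was at 80.2 and 1011 CPM in the KO-MII libraries and at 813 and 704 CPM in WT-MII. Only replicate 1 was low for these 2 genes.

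**Figure D2:**
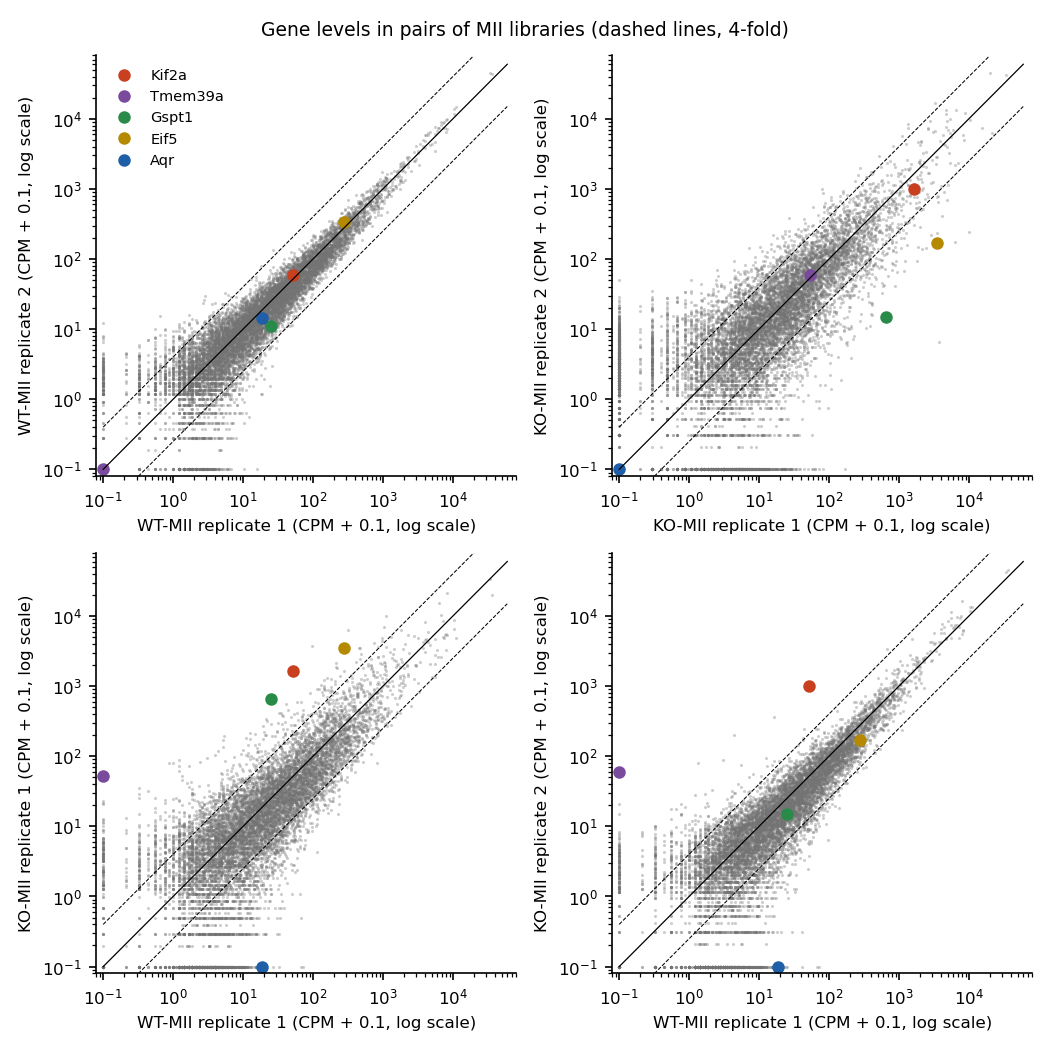
Levels of the 10732 tested genes in pairs of MII libraries, each axis in CPM + 0.1 on a log scale, with solid lines at equality and dashed lines at 4-fold. The WT-MII pair lies close to the line, the KO-MII pair is wide, Gspt1 and Eif5 leave the line in KO-MII replicate 1 alone, and Kif2a and Tmem39a leave it in both KO-MII libraries.

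Both genotypes had the content of an MII oocyte. By the mean of WT-MII, the most counted gene with a symbol was Dppa3, a maternal protein that protects the maternal genome from demethylation. It was at 11095 and 14806 CPM in WT-MII and 4788 and 13382 CPM in KO-MII. Ypel5, Cks1b (a subunit of cyclin-dependent kinases) and Bcl2l10 (an oocyte relative of BCL2) were also among the 10 most counted genes of WT-MII. Cks1b was at 8010 and 9568 CPM in WT-MII and at 5564 and 5470 CPM in KO-MII, and Bcl2l10 at 7254 and 8823 CPM against 8481 and 4933 CPM. In KO-MII replicate 1 both lay above Dppa3. All 9 oocyte markers with a row were counted in every library. Of 18 rows of cumulus and granulosa cell markers, 9 were at 0 in all 4 libraries, among them Amh, Fshr, Lhcgr, Inha, Tnfaip6 and Ptx3. The summed level of that list was 51.2 and 57.7 CPM in WT-MII and 38.5 and 27.1 CPM in KO-MII, most of it from Nr5a2 and Amhr2. Leukocyte markers summed to 45.9 and 31.5 CPM in WT-MII and 64.7 and 61.4 CPM in KO-MII, nearly all of it Csf1r, with Ptprc, Cd68, Adgre1 and 4 other rows at 0 in every library. Oviduct markers summed to 10.2 and 24.4 CPM against 23.3 and 26.9 CPM with Foxj1 and Muc1 at 0, and blood markers to between 0 and 3.62 CPM with 2 of 3 rows at 0, Slc4a1 among them.

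A fall in the level of many maternal transcripts from the GV stage was seen in all 4 libraries. A set of 506 genes was chosen on libraries outside the MII stage, with at least 50 CPM in both WT-GV libraries and more than 4-fold less in both WT embryos labelled 10PEA. Their median log2 level over the WT-GV mean was −4.20 and −3.81 in WT-MII and −3.72 and −4.36 in KO-MII, and −3.91 and −3.01 in D321. The genotypes overlap. Zp3, a zona pellucida glycoprotein, was at 2354 and 2598 CPM in WT-GV, at 434 and 628 CPM in WT-MII and at 707 and 489 CPM in KO-MII. The 506 genes took 1.34% and 1.78% of the counts in WT-MII and 3.05% and 1.63% in KO-MII, against 13.2% and 13.7% in WT-GV. A reverse set of genes that gain from WT-GV to WT-10PEA held 13 members. Their median log2 level over the WT-GV mean was 1.16 and 0.94 for the WT-MII pair, 0.41 and 0.25 for the KO-MII pair, and 0.42 and 0.11 for D321. The medians of the MII genotypes do not overlap. By share of counts the genotypes did overlap: the 13 genes took 0.0684% and 0.0520% in WT-MII and 0.0783% and 0.0351% in KO-MII. The members differ among themselves, and both examples here were picked after their values were seen. Among them the homeobox gene Leutx, known in human from the time of genome activation, was at 52.9 and 62.2 CPM in WT-MII, 9.11 and 24.3 CPM in KO-MII and 20.7 and 9.0 CPM in D321. Lpcat4, an enzyme of phospholipid remodelling, went the other way, at 4.37 and 12.1 CPM in WT-MII and 14.4 and 29.8 CPM in KO-MII.

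Pld6 itself was lower in both KO-MII libraries, but within the error of the fit. It was at 6.61 and 9.43 CPM in WT-MII and at 5.62 and 1.28 CPM in KO-MII. Only replicate 2 of KO-MII was far below the WT pair. The log2 difference was −1.03 ± 1.17 (SE; unadjusted p = 0.413, edgeR), and −2.45 without KO-MII replicate 1 or −0.35 without replicate 2. At the GV stage Pld6 was at 36.2 and 31.9 CPM in WT and 42.0 and 22.7 CPM in KO, and D321 had 9.98 and 5.33 CPM. Reads were still assigned to the gene in every KO library of the GV, MII and D321 groups, and a count per gene does not show whether such a transcript can encode the protein.

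The PIWI genes themselves showed different patterns. Piwil1 was at 45.4 and 42.2 CPM in WT-MII and at 55.2 and 42.3 CPM in KO-MII. Its log2 difference was 0.36 ± 0.52 (SE), and −0.34 when libraries were scaled to their ERCC counts. Piwil3 was at 13.1 and 13.4 CPM in WT-MII and at 2.91 and 4.05 CPM in KO-MII, so that both KO-MII libraries lay well below both WT-MII libraries. The log2 difference of Piwil3 was −1.73 ± 0.90 (SE; unadjusted p = 0.0989, edgeR), and D321 lay between at 7.16 and 10.4 CPM. Piwil2 had 41 counts over the WT-MII pair and 1 over the KO-MII pair, 40.5 times as many in CPM, with an exact 95% interval of 6.87 to 1637 for counting error only. In D321, however, Piwil2 was at 3.76 and 1.33 CPM, around the WT-MII values of 2.46 and 1.72 CPM. Ddx4, the germ cell RNA helicase Vasa, was at 1130 and 779 CPM in WT-MII and at 272 and 819 CPM in KO-MII, low in KO-MII replicate 1 alone.

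The PIWI and piRNA pathway list held 33 genes with a row, of which 27 could be tested. None passed the adjusted test, 2 were higher in both KO-MII libraries than in both WT-MII libraries and 12 were lower in both, where 9.18% and 26.1% of all tested genes did so. Those shares become 12.7% and 20.2% with TMM scaling, the trimmed-mean factors of edgeR, in place of CPM. The median log2 difference of the list was −0.27, beside −0.01 over all genes tested. Among the genes that were lower, Tdrd1, a Tudor scaffold of the nuage, was at 219 and 163 CPM in WT-MII and 56.9 and 98.1 CPM in KO-MII, a log2 difference of −1.10 ± 0.53 (SE; unadjusted p = 0.0808, edgeR). Henmt1, which methylates the 3′ ends of piRNAs, was at 177 and 150 CPM against 40.6 and 89.9 CPM, a log2 difference of −1.12 ± 0.57 (SE; unadjusted p = 0.0955, edgeR). D321 was also below WT-MII in both, at 72.9 and 94.4 CPM for Tdrd1 and 105 and 61.6 CPM for Henmt1. Mael and Pnldc1 were named after their values were seen. Mael, known for transposon silencing in mouse germ cells, was at 12.1 and 10.2 CPM against 3.68 and 2.77 CPM, but at 13.4 and 12 CPM in D321. Pnldc1, which trims piRNA 3′ ends, was at 239 and 175 CPM against 139 and 160 CPM. In the other direction, Gtsf1, a zinc finger partner of PIWI proteins, was at 65.6 and 66.2 CPM in WT-MII and at 107 and 97.5 CPM in KO-MII.

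**Figure D3:**
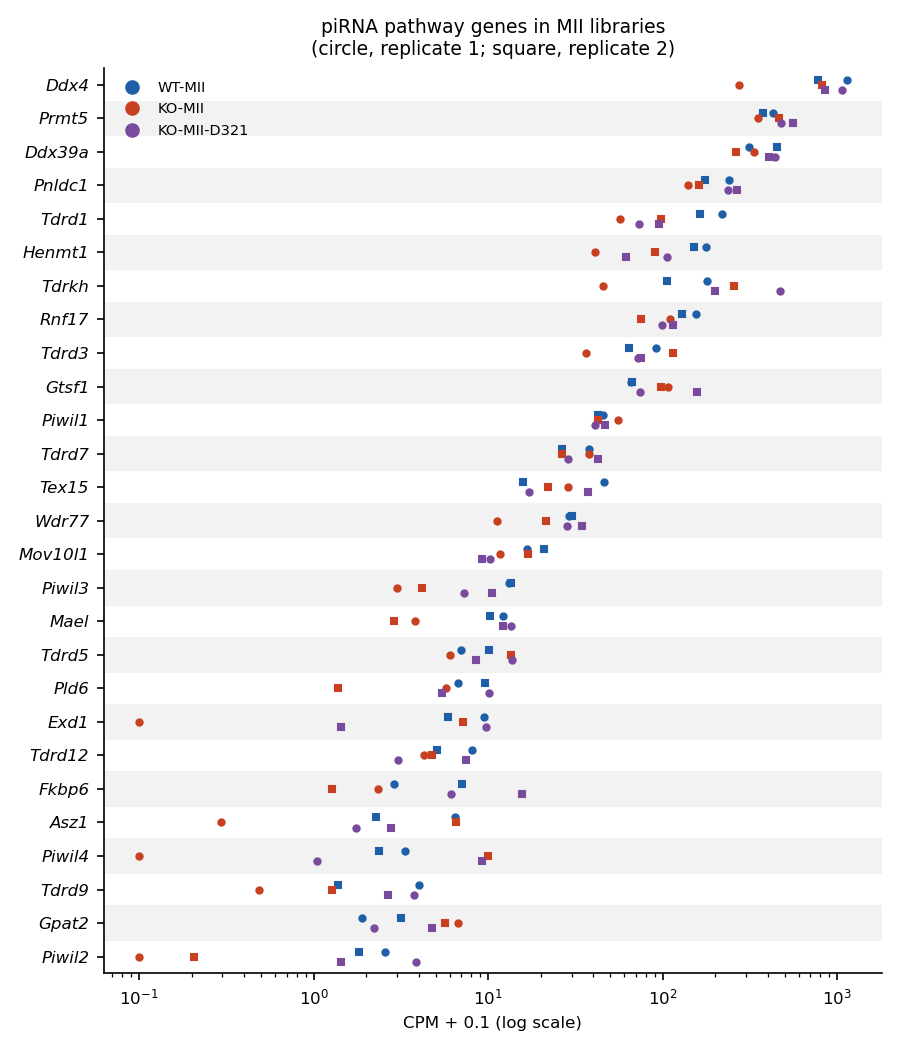
Levels of the 27 tested piRNA pathway genes in the WT-MII, KO-MII and D321 libraries, as CPM + 0.1 on a log axis, ordered by their mean in WT-MII. Tdrd1, Henmt1 and Piwil3 lie lower in both KO-MII libraries than in both WT-MII libraries, Gtsf1 lies higher, and Piwil1 overlaps.

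No gene passed the adjusted test between KO-MII and WT-MII. Of 10732 genes tested with edgeR's quasi-likelihood test, 0 (0%) passed an adjusted p of 0.05, the smallest adjusted p was 0.937, and 502 (4.68%) had an unadjusted p under 0.05. Of these 502, 159 (1.48%) were higher and 343 (3.20%) lower in KO-MII. DESeq2 called 46 genes and limma voom 0. The standard error of a log2 difference had a median of 0.93, and the common dispersion was 0.618. In CPM, 985 genes (9.18%) were higher in both KO-MII libraries than in both WT-MII libraries and 2805 (26.1%) were lower, 3790 (35.3%) in all. A full separation of 2 libraries from 2 has an exact two-sided permutation p of 0.333, so it is weak evidence of a difference for any 1 gene. Between D321 and WT-MII, which share the WT-MII libraries with this comparison, 2035 (19.0%) were higher and 2380 (22.2%) lower. For KO-MII against WT-MII with each library scaled to its ERCC counts, 162 were higher and 3727 lower, and the median log2 difference of all genes moved from −0.01 to −0.89. The count of called genes rests on the KO-MII pair: it was 840 (230 higher, 610 lower) without replicate 1 and 2222 (989 higher, 1233 lower) without replicate 2, when the lone KO-MII library is assumed to vary as little as the WT-MII pair. Without either WT-MII library it was 0 or 3.

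By the naming rule, 12 genes higher and 12 lower in KO-MII were taken by lowest unadjusted p (edgeR), and all 24 had an adjusted p of 0.937. Tmem39a, a membrane protein of the endoplasmic reticulum, had no count in either WT-MII library and stood at 52.6 and 58.8 CPM in KO-MII, at least 370-fold higher against a floor of 3 counts over the WT-MII pair. In D321 it was at 125 and 84.2 CPM. Kif2a, a kinesin-13 that takes microtubules apart at spindle poles, was at 52.3 and 59.2 CPM in WT-MII and at 1655 and 991 CPM in KO-MII. Its log2 difference was 4.76 ± 0.62 (SE; unadjusted p = 0.000197, edgeR), and D321 had 715 and 716 CPM. Both genes also differed the same way at the GV stage, with no library in common: Tmem39a at 3.47 and 3.30 CPM in WT-GV and 61.4 and 68.0 CPM in KO-GV, and Kif2a at 140 and 99.8 CPM in WT-GV and 910 and 725 CPM in KO-GV. Fitted with the GV libraries, Tmem39a and Kif2a were the 2 of 13853 genes (0.0144%) that passed at MII, with edgeR adjusted p = 0.0195 and 0.0201. At GV in that fit 0 genes (0%) passed and 103 (0.744%) had an unadjusted p under 0.05, Tmem39a and Kif2a among them at an edgeR adjusted p of 0.496.

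Other genes of this group had a low level in both WT-MII libraries. Gtf2b, the general transcription factor TFIIB, was at 136 and 119 CPM in WT-GV and at 16.4 and 7.25 CPM in WT-MII, but at 120 and 366 CPM in KO-MII and 309 and 282 CPM in D321. Lsm8, a subunit of the ring that binds U6 small nuclear RNA, was at 85.8 and 67.4 CPM in WT-GV, 2.91 and 10.6 CPM in WT-MII and 94.2 and 88.6 CPM in KO-MII. Nrdc, the metalloprotease nardilysin, was at 73.8 and 29.8 CPM in WT-GV, 16.4 and 7.61 CPM in WT-MII and 117 and 86.1 CPM in KO-MII. Pfdn4, a subunit of the chaperone prefoldin, was at 158 and 134 CPM in WT-GV, 18.9 and 27.8 CPM in WT-MII and 271 and 84.2 CPM in KO-MII. Cop1, an E3 ubiquitin ligase, was at 16.1 and 8.58 CPM in WT-GV, 1.12 and 1.81 CPM in WT-MII and 60.6 and 27.7 CPM in KO-MII, above both GV libraries of WT. The WT-MII pair was the low one in each of these genes. The rule takes genes that are low in WT-MII, so this is partly set by it. KO-GV had 238 and 222 CPM of Gtf2b, 92.1 and 93.5 CPM of Lsm8 and 216 and 239 CPM of Pfdn4. Each of these lay above both WT-GV libraries. Of the 12 genes higher in KO-MII, 8 had both KO-GV libraries above both WT-GV libraries. The share of all genes that do so at GV was not counted. Sys1, a Golgi trafficking protein, was at 0.224 and 0.906 CPM in WT-MII and 29.1 and 8.95 CPM in KO-MII, but at 3.99 and 0.889 CPM in D321. Tlnrd1, Nacc1, Pwwp2a and Ppat complete the group. Tlnrd1 had no count in WT-MII and 20.7 and 4.69 CPM in KO-MII, at least 87.1-fold higher.

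The 12 genes lower in both KO-MII libraries were of moderate level in WT-MII, and D321 often lay between. Aqr, the intron-binding spliceosome helicase Aquarius, was at 18.7 and 14.1 CPM in WT-MII and had no count in KO-MII, at least 106-fold lower against 3 counts over the KO-MII pair. D321, however, had 12.2 and 12.7 CPM of Aqr, and the KO-GV libraries 41.3 and 18.9 CPM. Gatd1 was at 9.63 and 21.2 CPM in WT-MII with no count in KO-MII, at least 105-fold lower, and at 5.40 and 4.0 CPM in D321. Supt6h, the elongation factor and histone chaperone SPT6, was at 51.6 and 50.5 CPM in WT-MII, 8.91 and 6.18 CPM in KO-MII and 11.3 and 20.0 CPM in D321. All 3 genes were thus lower in each KO-MII and D321 library than in each WT-MII library. Ndufa10, a subunit of respiratory complex I, was at 34.2 and 44.8 CPM in WT-MII and 4.46 and 1.17 CPM in KO-MII, a log2 difference of −3.61 ± 0.89 (SE; unadjusted p = 0.00603, edgeR), with 22.7 and 25.0 CPM in D321. Psen2, a catalytic subunit of gamma-secretase, was at 26.2 and 22.8 CPM against 3.10 and 3.41 CPM. Tpm3, a tropomyosin of the actin cytoskeleton, was at 114 and 89.2 CPM against 20.8 and 27.1 CPM. The other genes were Kiaa0232, Poc1a, Clip4, Zc3hav1, Zmynd11 and Ufsp2, at 8.52 to 147 CPM in WT-MII and 0.388 to 35.1 CPM in KO-MII.

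**Figure D4:**
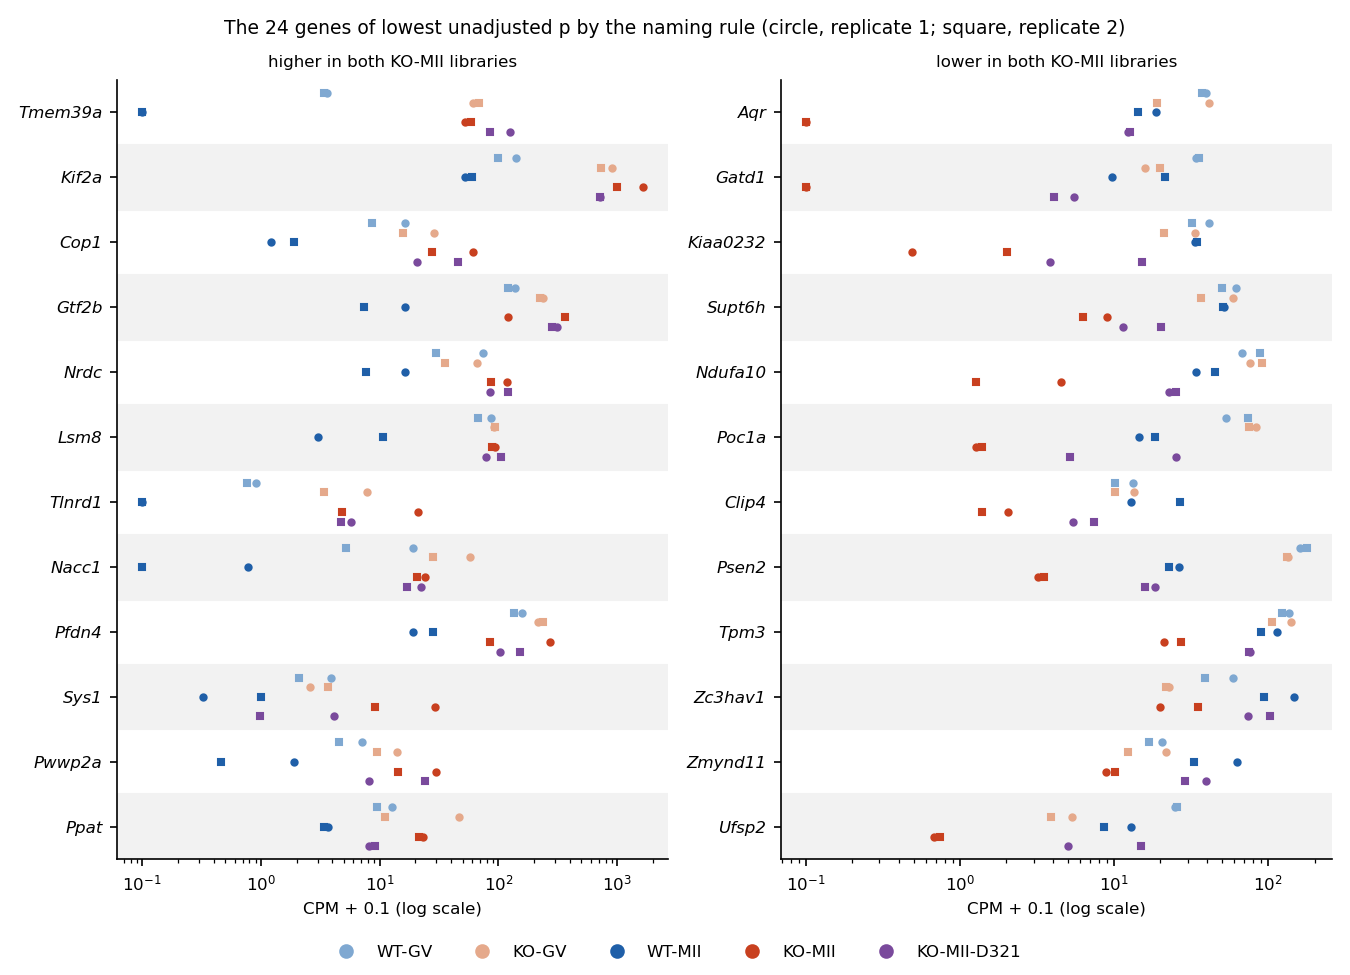
The 12 genes higher and the 12 lower in both KO-MII libraries with the lowest unadjusted p, in WT and KO at GV and MII and in D321, as CPM + 0.1 on a log axis (points at 0.1 had no count). Tmem39a and Kif2a are higher in the KO libraries at both stages and in D321. Gtf2b, Lsm8 and Pfdn4 are so too, with a smaller difference at GV and a low level in WT-MII.

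Whether the KO difference at MII departs from that at GV was tested directly in the 8 libraries of both stages. None of 13853 genes (0%) passed, and 995 (7.18%) had an unadjusted p under 0.05 (edgeR), while DESeq2 called 148. The 6 genes of lowest unadjusted p with a relatively higher KO level at MII were Tmem39a, Gtf2b, Cop1, Lsm8, Nrdc and Ndufa8, and the 6 with a relatively lower one were Mrpl15, Aqr, Lypd4, Gatd1, Unc13d and Poc1a. For Gtf2b the log2 difference was 4.46 at MII and 0.86 at GV, 3.60 ± 0.82 (SE) apart with an edgeR adjusted p of 0.378. For Kif2a it was 4.64 at MII and 2.79 at GV, 1.85 ± 0.54 (SE) apart with an edgeR adjusted p of 0.41. Mrpl15, a protein of the mitochondrial ribosome, had 3.14 and 3.44 CPM in WT-MII and no count in KO-MII, at least 21.7-fold lower, and was at 123 to 131 CPM in all 4 GV libraries. Without KO-MII replicate 1 the test called 463 genes and without replicate 2 it called 1482, with the lone library again assumed to vary like the others.

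Absence of transcripts was more frequent in the KO-MII libraries than in the D321 libraries. Of 9534 genes with at least 1 CPM in both WT-MII libraries, 712 (7.47%) had no count in KO-MII replicate 1 and 772 (8.10%) none in replicate 2. The same figures were 257 (2.7%) and 130 (1.36%) in the D321 libraries, which share the WT-MII libraries as reference. Between the WT-MII libraries, 4.04% of genes at 1 CPM in replicate 2 had no count in replicate 1, and 4.61% the other way round. These shares are over 10683 and 10682 genes, each set by a single WT-MII library. They are therefore not directly comparable with the shares of the 9534 genes. Both KO-MII libraries lacked 239 of the 9534 genes, and 29 genes were at 1 CPM or more in both KO-MII libraries without a count in WT-MII. Most were scarce: the 239 had a median of 2.50 CPM in WT-MII, and 2 reached 10 CPM in both WT-MII libraries, Aqr and a gene named only LOC101832666 in the files. LOC101832666 was at 70.9 and 25.2 CPM in WT-MII and had no count in either D321 library. Of the 239, 62 also lacked a count in D321 replicate 1 and 43 in replicate 2. The metabolic genes Psph (the last enzyme of serine synthesis) and Coq6 (of ubiquinone synthesis) were among the 239, the first at 5.15 and 11 CPM and the second at 4.26 and 7.07 CPM in WT-MII. Among the 29, Rec8, a meiotic cohesin subunit, was at 3.10 and 2.03 CPM in KO-MII, and Isg15, an interferon-induced ubiquitin-like protein, at 1.36 and 1.28 CPM. LOC101832666, Psph, Coq6, Rec8 and Isg15 were picked after their values were seen.

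Gene groups of oocyte biology were read against the same background. Lists of 24 functions held 584 tested members, counted once in each list that names them, and none passed. Their medians moved with the scaling: all 24 were below 0 with ERCC scaling, and 10 of the 24 changed sign between TMM, RLE and total-count scaling. List medians are given with TMM scaling as descriptions only, and no list is said to have changed. The median over all tested genes was −0.01 with TMM and −0.20 with total-count scaling. Non-overlap counts below are by CPM and are to be read beside the shares over all tested genes, 9.18% higher and 26.1% lower, which also move with the scaling. The phospholipase D and cardiolipin list, from which Pld6 comes, had 2 of 15 tested genes higher and 7 lower in both KO-MII libraries, with a median log2 difference of −0.55 beside −0.01 over all genes. Tafazzin, which remodels cardiolipin, was at 15.5 and 7.25 CPM in WT-MII and 3.88 and 2.56 CPM in KO-MII, and the cardiolipin synthase Crls1 at 81.9 and 56.6 CPM against 48.5 and 29.5 CPM. D321, however, was at 21.4 and 13.6 CPM for Tafazzin and 41.6 and 70.8 CPM for Crls1. Neither gene was thus lower than WT-MII in both D321 libraries. Triap1, 1 of the 2 higher members, was at 13.9 and 14.0 CPM in WT-MII and 17.8 and 28.4 CPM in KO-MII. The mitochondrial fusion and fission list had 1 of 20 higher and 8 lower, where 9.18% and 26.1% of all tested genes were, and a median log2 difference of −0.16. Rhot2, which links mitochondria to motor proteins, was at 21.5 and 14.0 CPM against 1.16 and 5.54 CPM, and the fusion protein Mfn2 at 26.9 and 26.3 CPM against 11 and 19.0 CPM. Phb2, a prohibitin of the inner membrane, was split between the KO-MII libraries, at 2468 and 146 CPM, with 463 and 672 CPM in WT-MII.

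**Figure D5:**
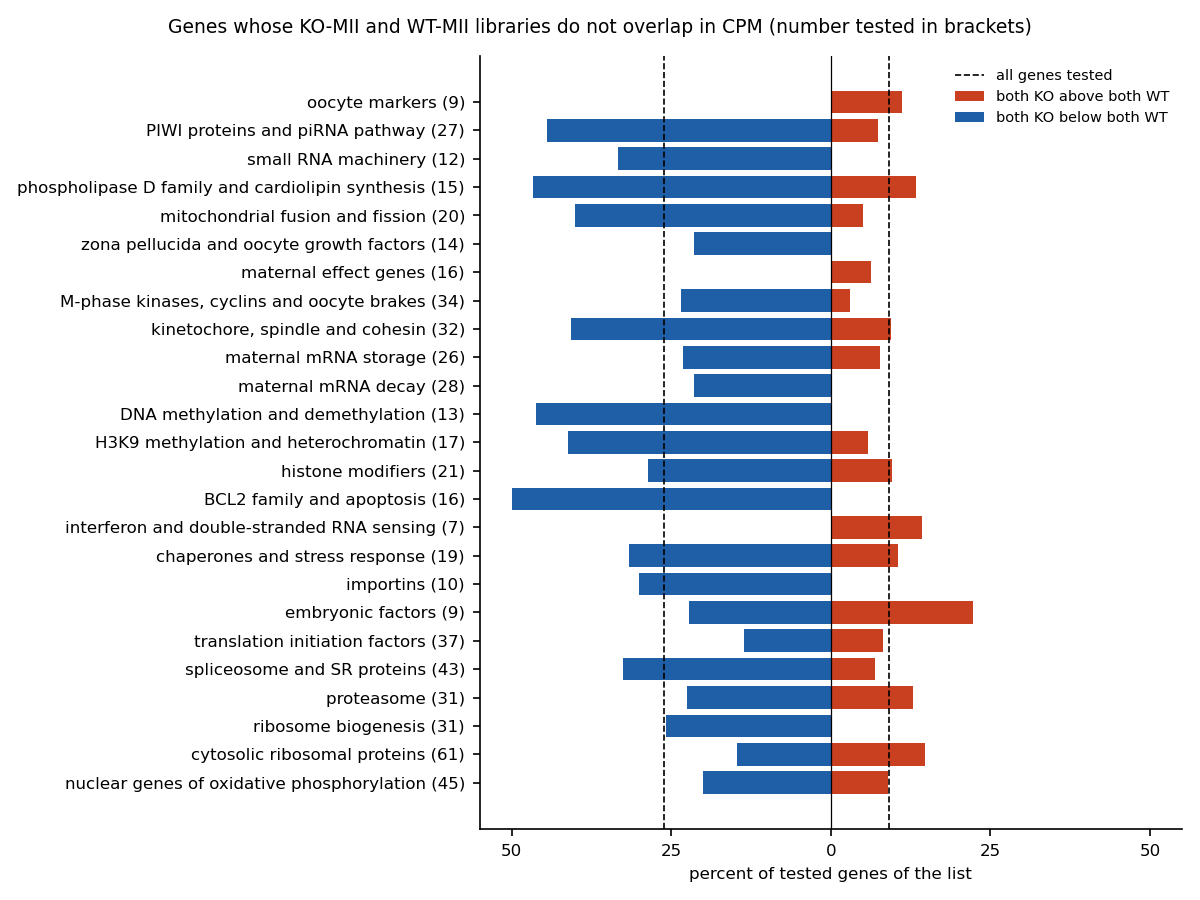
Percent of the tested genes of each list (number in brackets) that lie above (right) or below (left) both WT-MII libraries in both KO-MII libraries, by CPM; dashed lines give the shares over all 10732 tested genes, 9.18% and 26.1%. The piRNA, phospholipase D, DNA methylation and BCL2 lists reach beyond the left line. So do the H3K9, kinetochore, mitochondrial fusion, small RNA, spliceosome, chaperone, importin and histone modifier lists. Among those that stay inside the left line are the ribosomal protein and translation initiation lists.

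Among regulators of meiosis and of the spindle none passed the adjusted test, and 9.18% of all tested genes were higher and 26.1% lower in both KO-MII libraries. Of 34 tested M-phase kinases, cyclins and oocyte brakes, 1 was higher and 8 were lower in both KO-MII libraries, with a median log2 difference of −0.03. Bora, an activator of Aurora A and Plk1 signalling, was at 74.6 and 53.8 CPM in WT-MII and 18.4 and 30.0 CPM in KO-MII. Fbxo5 (Emi1), an inhibitor of the anaphase-promoting complex, was at 206 and 169 CPM against 102 and 67.6 CPM. D321, however, was at 71.8 and 85.1 CPM for Bora and at 131 and 250 CPM for Fbxo5. Neither gene was thus lower than WT-MII in both D321 libraries. Mos, the kinase that holds the MII arrest through MAP kinase, was at 157 and 159 CPM in WT-MII but at 692 and 56.6 CPM in KO-MII, so that the KO-MII libraries lay on either side of WT. The kinetochore, spindle and cohesin list had 3 of 32 genes higher and 13 lower. Aurkc, the Aurora kinase of germ cells, was at 863 and 807 CPM in WT-MII and 2604 and 1680 CPM in KO-MII, a log2 difference of 1.56 ± 0.54 (SE; unadjusted p = 0.0265, edgeR). D321 was high as well, at 2633 and 2246 CPM. Kif11, the kinesin that pushes spindle poles apart, was at 52.9 and 34.8 CPM against 8.14 and 17.1 CPM, and 14.6 and 27.6 CPM in D321. Spc25, a subunit of the Ndc80 kinetochore complex, was at 8.18 and 12 CPM in WT-MII and 13.4 and 55.2 CPM in KO-MII. At the GV stage Spc25 was at 295 and 277 CPM in WT and 622 and 749 CPM in KO.

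Oocyte-specific and maternal effect genes were also read against 9.18% higher and 26.1% lower over all tested genes. Of 14 tested zona pellucida and growth factor genes, 0 were higher and 3 lower in both KO-MII libraries, and of 16 maternal effect genes 1 was higher and 0 were lower. Zp1 was at 156 and 263 CPM in WT-MII, 85.4 and 101 CPM in KO-MII and 222 and 564 CPM in D321. Nlrp5 (Mater), of the subcortical maternal complex, was at 484 and 628 CPM in WT-MII, 1284 and 673 CPM in KO-MII and 354 and 536 CPM in D321. Zar1, an RNA-binding protein of the oocyte, was split between the KO-MII libraries as Mos was, at 104 and 2.13 CPM, with 11 and 10.5 CPM in WT-MII and 168 and 92.4 CPM in WT-GV. Of 9 tested embryonic factors 2 were higher and 2 lower, with Sall4, a zinc finger factor of pluripotent cells, at 153 and 123 CPM in WT-MII and 305 and 199 CPM in KO-MII.

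Factors that store, decay and translate maternal mRNA had shares near those over all tested genes (9.18% higher, 26.1% lower) for storage, and no higher member for decay. Celf1, which binds GU-rich 3′ ends, was at 127 and 134 CPM in WT-MII and 414 and 277 CPM in KO-MII, a log2 difference of 1.60 ± 0.51 (SE; unadjusted p = 0.0182, edgeR), with 170 and 165 CPM in D321. It was 1 of 2 storage genes of 26 that were higher in both KO-MII libraries, and 6 were lower, among them Igf2bp2 at 125 and 81.6 CPM against 29.2 and 45.9 CPM. Of 28 decay genes 0 were higher and 6 lower, among them the decapping enzyme Dcp2 at 438 and 329 CPM against 114 and 219 CPM. Of 37 translation initiation factors 3 were higher and 5 lower. Eif4a1, the RNA helicase of the cap-binding complex, was at 277 and 247 CPM in WT-MII and 661 and 572 CPM in KO-MII, a log2 difference of 1.44 ± 0.49 (SE; unadjusted p = 0.0239, edgeR). It was also high in D321, at 911 and 899 CPM. Eif4g3, a scaffold of the same complex, was at 38.5 and 19.3 CPM against 62.2 and 74.2 CPM. Cytosolic ribosomal protein genes had 9 of 61 higher and 9 lower, ribosome biogenesis genes 0 of 31 higher and 8 lower, spliceosome genes 3 of 43 higher and 14 lower, and proteasome genes 4 of 31 higher and 7 lower. The splicing factor Srsf3 was at 47.5 and 54.7 CPM in WT-MII and 19.5 and 16.4 CPM in KO-MII, and the proteasome subunit Psmd14 at 96.5 and 99.1 CPM against 20.0 and 56.9 CPM.

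Genes of chromatin and DNA methylation include those that silence repeats, and over all tested genes 9.18% were higher and 26.1% lower in both KO-MII libraries. DNA methylation and demethylation genes had 0 of 13 higher and 6 lower in both KO-MII libraries, and a median log2 difference of −0.28. Dnmt3b, a de novo methyltransferase, was at 15.1 and 5.26 CPM in WT-MII and 1.55 and 0.64 CPM in KO-MII, and the oxidase Tet3 at 1139 and 472 CPM against 378 and 436 CPM. The H3K9 methylation and heterochromatin list had 1 of 17 higher and 7 lower, with a median log2 difference of 0.02. Tasor, a subunit of the HUSH silencing complex, was at 108 and 64.4 CPM in WT-MII and 24.8 and 25.3 CPM in KO-MII, a log2 difference of −1.57 ± 0.55 (SE; unadjusted p = 0.0263, edgeR), and at 41.7 and 49.6 CPM in D321. Setdb1, an H3K9 methyltransferase, was at 196 and 176 CPM against 63.9 and 112 CPM. Of 21 other histone modifiers, 2 were higher and 6 lower. Kmt2c, an H3K4 methyltransferase, was at 332 and 191 CPM in WT-MII and 878 and 544 CPM in KO-MII, a log2 difference of 1.66 ± 0.56 (SE; unadjusted p = 0.0238, edgeR). Suz12, of the Polycomb complex PRC2, was at 109 and 71.5 CPM against 41.6 and 24.5 CPM.

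Stress, death and respiration genes completed the lists, beside the same 9.18% higher and 26.1% lower over all tested genes. BCL2 family and apoptosis genes had 0 of 16 higher and 8 lower in both KO-MII libraries, with a median log2 difference of −0.51. Of 7 tested interferon and double-stranded RNA sensing genes 1 was higher (Isg15) and 0 were lower. Chaperone and stress genes had 2 of 19 higher and 6 lower. Hsp90aa1, the inducible HSP90, was at 1454 and 1797 CPM in WT-MII and 3445 and 2821 CPM in KO-MII, a log2 difference of 1.14 ± 0.54 (SE; unadjusted p = 0.0763, edgeR). Nuclear genes of oxidative phosphorylation had 4 of 45 higher and 9 lower, with Ndufs4 of complex I at 195 and 197 CPM against 645 and 261 CPM and Sdha of complex II at 48.8 and 75.6 CPM against 25.2 and 30.6 CPM. Small RNA machinery genes had 0 of 12 higher and 4 lower, among them Dicer1 at 45.6 and 55.4 CPM against 27.8 and 34.9 CPM. Importins had 0 of 10 higher and 3 lower, and Kpna7, the oocyte importin alpha, was at 6728 and 8182 CPM against 2646 and 7497 CPM, low in KO-MII replicate 1 alone.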

How the data were processed

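The deposited files hold whole-number counts for each gene. Per the submitters' processing notes, Trim Galore, TopHat, STAR 2.7.1a and featureCounts were used, with no role given for each; the genome build and strand setting are not given in the sources used here. Each file had 32303 gene rows and 92 ERCC rows; 31882 gene names matched a RefSeq symbol. Per the labels' protocols, 0.125 µL of a 1 in 100000 dilution of ERCC RNA was added.

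Here the 4 libraries were tested with edgeR 4.0.16 (R 4.3.3): filterByExpr, TMM scaling, quasi-likelihood F test of 2 group means, Benjamini-Hochberg adjustment, threshold 0.05. ERCC rows entered scaling checks only. Alternatives were RLE, ERCC and total-count scaling, other filters, DESeq2 1.42.0, limma voom 3.58.1, fits of 8 and 26 libraries, a replicate block, each library left out, and D321 in place of KO-MII. Single values were compared by exact permutation. The test was also run on simulated data. A gene at 0 in a group has its fold against 3 counts over that group.

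The comparison, the gene lists and the naming rule were chosen with earlier results of these data known. The rule takes Pld6, Piwil1, Piwil2, Piwil3 and Ddx4, then genes with a symbol, a mean of 10 CPM in the higher group and no overlap: 12 each way by change if adjusted p passed, else by unadjusted p. It adds the 10 most counted genes, up to 4 members per list by p, and 6 each way for the stage test. Alternatives on absence, thinning, overlap by scaling, and KO-MII replicate 2 with D321 were chosen after seeing the data. No list was tested as a set. Some list members are not reported here.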

Additional observations from a re-analysis of the deposited data

How the results depend on the processing

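With 2 libraries a group, the spread of the KO-MII pair sets what can be called. The count of genes called, 0, was also 0 with RLE or total-count scaling, a filter of 5 CPM, limma voom and the fit of 26 libraries; it was 2 with ERCC scaling, 58 with no filter, 46 with DESeq2 and 2 in the fit of 8 libraries. It was 25 with D321 in place of KO-MII, and 12 with KO-MII replicate 2 and D321 as 1 KO group. Leaving out each library in turn gave 0 to 2222, with 840 without KO-MII replicate 1 and 2222 without replicate 2. For the test of MII against GV, 0 was also found with RLE and ERCC scaling and in the fit of 26 libraries; it was 160 with no filter, 148 with DESeq2, and 0 to 1482 with a library left out (463 and 1482 without KO-MII replicates 1 and 2). The number of counts per gene is small for scarce genes, and calls with no filter include such genes; the cause of the other shifts was not tested.

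Whether the replicate numbers pair the samples is not known. The difference of replicate 1 from replicate 2 in WT-MII correlated at −0.07 over genes with that in KO-MII. This correlation cannot show whether same-numbered libraries were prepared together. Gene counts per ERCC count were higher in replicate 1 in both genotypes, at 99.2 and 48.7 in WT-MII and 75.9 and 23.2 in KO-MII. With the replicate block, 3 genes were called at MII and 0 in the test of MII against GV.

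The log2 difference in gene counts per ERCC count, −0.73, ranged from −1.58 to 0.13 with a library left out, and was 0.13 without KO-MII replicate 2. Genes higher in both KO-MII libraries, 985 by CPM, numbered 1509 with RLE scaling, 162 with ERCC scaling and 2035 with D321 in place of KO-MII. Of genes at 1 CPM in WT-MII, 239 lacked a count in both KO-MII libraries, 712 in replicate 1 and 772 in replicate 2. Piwil1 reversed to −0.34 with ERCC scaling, and every other named gene followed here kept its direction under every fit that tested it. For genes named because their KO-MII and WT-MII libraries do not overlap, this was largely set by that choice. Of the 40 named genes followed here, DESeq2 called 15.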

Other observations

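A few genes were lower in the KO libraries at both GV and MII, and are named here after their values were seen. The share of all genes that do so was not counted. Fgf14, a fibroblast growth factor homologue that stays in the cell, was at 33.8 and 42.9 CPM in WT-GV and 6.79 and 11.6 CPM in KO-GV. At MII Fgf14 was at 59.7 and 55 CPM in WT and 4.65 and 25.2 CPM in KO, and D321 had 34.2 and 33.2 CPM. Ufsp2, a protease of the ubiquitin-like protein UFM1, was at 24.9 and 25.5 CPM in WT-GV and 5.25 and 3.77 CPM in KO-GV, and at 12.8 and 8.52 CPM against 0.581 and 0.64 CPM at MII. Zc3hav1, an antiviral protein that binds CpG-rich RNA, was at 58.6 and 38.8 CPM in WT-GV and 22.5 and 21.6 CPM in KO-GV, and at 147 and 94.3 CPM against 19.8 and 35.1 CPM at MII. In D321, Ufsp2 was at 4.93 and 14.9 CPM and Zc3hav1 at 73.7 and 103 CPM, and both overlapped WT-MII. Mgam, the maltase-glucoamylase of starch digestion, was at 12.3 and 30.2 CPM in WT-GV and 0.309 and 3.77 CPM in KO-GV, and at 9.18 and 8.52 CPM in WT-MII with no count in KO-MII. In D321, however, Mgam was at 25.8 and 12.2 CPM, not below WT-MII.

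Only 2 genes, both without a symbol in the files and named after their values were seen, split the 4 WT from the 6 KO oocyte libraries (GV, MII and D321) completely, with at least 1 CPM in every library of one genotype and no count in the other. LOC101832666 was at 22.6 and 25.7 CPM in WT-GV and 70.9 and 25.2 CPM in WT-MII, with no count in KO-GV, KO-MII or D321. In the embryos labelled 33PEA, however, LOC101832666 was at 113 and 284 CPM in KO and 5.16 and 56.4 CPM in WT, so the gene can be counted in KO libraries. It also had no count in either WT-10PEA library. In the other direction, LOC121143513 was at 2.47 and 7.10 CPM in KO-GV, 5.62 and 4.16 CPM in KO-MII and 6.22 and 3.0 CPM in D321, with no count in WT-GV or WT-MII. Among KO embryos LOC121143513 was at 31.1 and 42.0 CPM in KO-33PEA. It had no count in KO-10PEA replicate 2 or in either KO-54PEA library.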
